A study of Mus musculus with 8 samples.

Results

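ERVL and MaLR repeats are remnants of retroviruses of the same broad class that are scattered in many copies through the mouse genome. The members described here are the rows of the deposited count table that belong to a long terminal repeat (LTR) class, carry a family name starting with ERVL or containing MaLR, and are counted as sense or antisense to the repeat. They make up 128024 of the 1010917 rows of the table, and 106388 of them hold at least 1 count. Summed by subfamily and strand class they form 431 features out of 289990 in the whole table after the same summing of all repeats, and they cover 220 subfamilies, of which 113 are ERVL and 107 are MaLR. Small RNA of mature sperm from C57BL/6J mice was counted in 8 libraries. The treatment label is Control-Cessation for 4 of them, the controls, and EtOH-Cessation for the other 4, the EtOH libraries. Total RNA was extracted from all of them in the same way, and both groups carry the word cessation, with no ethanol dose or exposure time in the labels. The labels name spermatozoa, while the submitters' design text names tissue of the caput, the head of the epididymis. Nothing in the labels says that the libraries of a group come from separate animals, so that a p-value reflects only how these libraries vary, which may be technical.

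ERVL elements are ancient relatives of retroviruses, and in the mouse the youngest of them, MERVL, is known for its burst of transcription in the early embryo, driven by LTRs of the MT2 type. MaLR elements are non-autonomous relatives without genes of their own, which include the ORR1, MT and MLT groups, and MT LTRs serve as promoters in the oocyte. In the male germ line, Piwi proteins load small RNAs called piRNAs, cut mostly from long transcripts of genomic piRNA clusters, and antisense piRNAs can direct the silencing of retrovirus transcripts. A name ending in -int denotes the inner part of an element between its LTRs, and other names denote its LTR.

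The libraries held between 4210785 and 4768713 counts in the controls and between 3116421 and 6805989 counts in the EtOH group. Counts of piRNA clusters took 20.9 ± 4.63% (SD, n = 4) of all counts in the controls and 21.9 ± 10.1% in the EtOH libraries. Exons took 9.08 to 30.5% of the counts in the EtOH libraries, the highest in library 2, against 7.07 to 7.73% in the controls. Counts of miRNAs took 6.96 to 10.1% in the EtOH libraries and 16.8 to 27.7% in the controls. All 12 sperm markers were detected, and their summed exon level of 322 to 473 CPM (counts per 1000000) in the EtOH libraries lay below the 511 to 622 CPM of the controls. Singly, Prm1, Odf1 and Smcp were lower in every EtOH library than in every control, and the other listed sperm genes overlapped between groups. All 12 markers of epididymal epithelium had counts in at least 1 library, at a sum of 717 to 18963 CPM in the EtOH libraries and 367 to 498 CPM in the controls. This sum rested mainly on Crisp1, Cd52, Adam7 and Wfdc10, each by far the highest in EtOH library 2. There Cd52 had 3472, Adam7 1922 and Wfdc10 1320 CPM. In the other EtOH libraries they had 123 to 361, 24.4 to 54.6 and 9.12 to 50.2 CPM. Wfdc10 overlapped between groups, with up to 11.2 CPM in the controls, and the highest control of Adam7 had 22.5 CPM. Crisp1 had 549 to 12224 CPM in the EtOH libraries and 266 to 430 CPM in the controls. Lcn5, Lcn8, Lcn9, Defb15, Cst8 and Cst11 had at most 1.61 CPM in any library and overlapped between groups. Leukocyte markers were detected at 13.1 ± 4.52 CPM in the controls and 13.1 ± 7.84 CPM in the EtOH libraries. Red blood cell markers had 22.6 ± 7.13 and 7.64 ± 7.07 CPM and smooth muscle markers 43.9 ± 39.5 and 32.0 ± 12.3 CPM, both overlapping between groups. In such bulk libraries, fewer cells of a type and less RNA per cell cannot be told apart. The part of these differences in the repeat levels below was not tested.

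ERVL and MaLR repeats together took 2.15, 1.50, 1.75 and 2.02% of all counts in control libraries 1 to 4 and 2.10, 1.18, 2.53 and 1.30% in EtOH libraries 1 to 4. EtOH library 3 was above every control and EtOH libraries 2 and 4 below every control, so that the means of 1.85 ± 0.288% and 1.78 ± 0.648% (SD, n = 4 per group) differed by less than the spread within either group. Without EtOH library 2 the EtOH mean was 1.98 ± 0.628% (n = 3). Antisense rows of MaLR held the most counts, with 0.831 ± 0.144% of all counts in the controls and 0.814 ± 0.323% in the EtOH libraries. MaLR sense rows followed with 0.581 ± 0.0736% and 0.539 ± 0.149%. ERVL antisense rows took 0.249 ± 0.0434% and 0.238 ± 0.0983%, and ERVL sense rows 0.193 ± 0.0331% and 0.190 ± 0.0789%. In each of the 4 sums the groups overlapped, and the same EtOH library, number 3, was the highest.

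**Figure D1:**
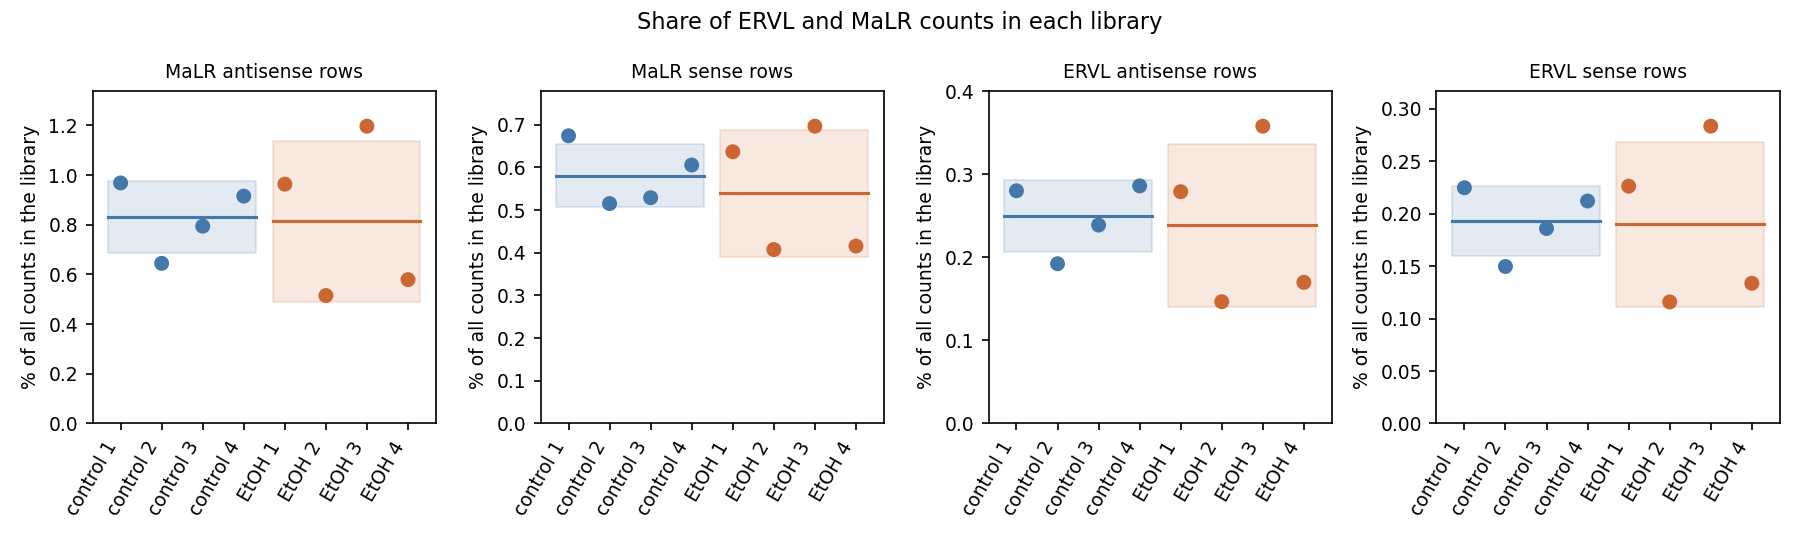
Counts of MaLR and ERVL rows by strand class as a percentage of all counts (y axis, starting at 0) in each of the 8 libraries (points), with the group mean (line) and 1 SD on either side (band). The EtOH points spread more widely than the control points in all 4 panels, with EtOH library 3 the highest and EtOH library 2 the lowest.

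The ERVL and MaLR counts took 19.5 ± 0.949% of all repeat counts in the controls and 19.9 ± 2.47% in the EtOH libraries. The share of antisense counts was 56.3 ± 0.801% of ERVL counts in the controls and 55.7 ± 0.334% in the EtOH libraries, and 58.7 ± 2.14% and 59.4 ± 3.13% of MaLR counts. In ERVK repeats, a family of younger elements, the antisense share was 65.9 ± 1.06% and 66.5 ± 1.87%. The groups overlapped for all 3 families.

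The 752242 ERVL and MaLR counts were concentrated in few copies. A single row held 6.88% of them, 10 rows held 25.1%, 50 rows held 50.4% and 100 rows held 63.4%. The 310 rows with a total of at least 100 counts over the 8 libraries, called abundant rows here, held 74.2%, whereas the 126440 rows with a total under 10, called sparse rows, held 22.0%. The remaining 1274 rows held 3.77%. Abundant rows were close to single-stranded, since in 283 of the 310 more than 95% of the counts of the copy lay on the strand of that row. Of the 310, 183 were antisense and 127 sense. The antisense share of the abundant counts was 63.6 ± 1.70% in the controls and 61.4 ± 3.04% in the EtOH libraries, and that of the sparse counts 45.6 ± 1.50% and 48.8 ± 2.80%.

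The abundant rows followed the level of piRNA cluster counts from library to library. Leaving out the row ORR1A2-int_copy1007, which was set apart after its values were seen, the other 309 abundant rows summed to 13863, 8687, 11809 and 14798 CPM of all counts in controls 1 to 4 and 14874, 7699.9, 20636 and 8599 CPM in EtOH libraries 1 to 4. Their coefficient of variation (CV) over the 8 libraries was 34.4%. Set against 1000 piRNA cluster counts of the same library, they came to 58.7, 59.3, 58.1 and 59.0 in the controls and to 57.9, 59.1, 59.8 and 59.7 in the EtOH libraries. On that scale the CV was 1.14%, the highest library exceeded the lowest by a factor of 1.03, and the groups overlapped. With ORR1A2-int_copy1007 included, the CV was 4.62%.

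The same held for most rows taken singly. The CV over the 8 libraries was smaller per piRNA cluster count than per all counts in 281 of the 310 abundant rows, with medians of 18.6% and 38.5%. Among the 116 rows with at least 1000 counts, 108 had a CV under 20% on the piRNA scale, the lowest being the 3.45% of ORR1F-int_copy91. The largest apart from ORR1A2-int_copy1007 was the 38.1% of ORR1B2_copy1772. Abundant ERVK rows came to 35.6 ± 0.680 and 35.4 ± 1.18 per 1000 piRNA cluster counts, with a CV of 2.53%. Abundant rows of ERV1, another retrovirus family, came to 28.1 ± 4.35 and 56.9 ± 37.9, with a CV of 69.0%. How a read inside both a repeat copy and a piRNA cluster was counted is not given in the sources used here, and the table carries no coordinates. A read counted in both rows would tie these values together, and that was not tested. The 2 most alike of the 10 largest piRNA cluster rows differed by at most 0.159% in any library. Of the ERVL and MaLR rows with at least 10 counts, 18 repeated another row of their subfamily and strand class in every library. Those 18 rows held 6457 counts. Whether such rows share reads was not tested.

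**Figure D2:**
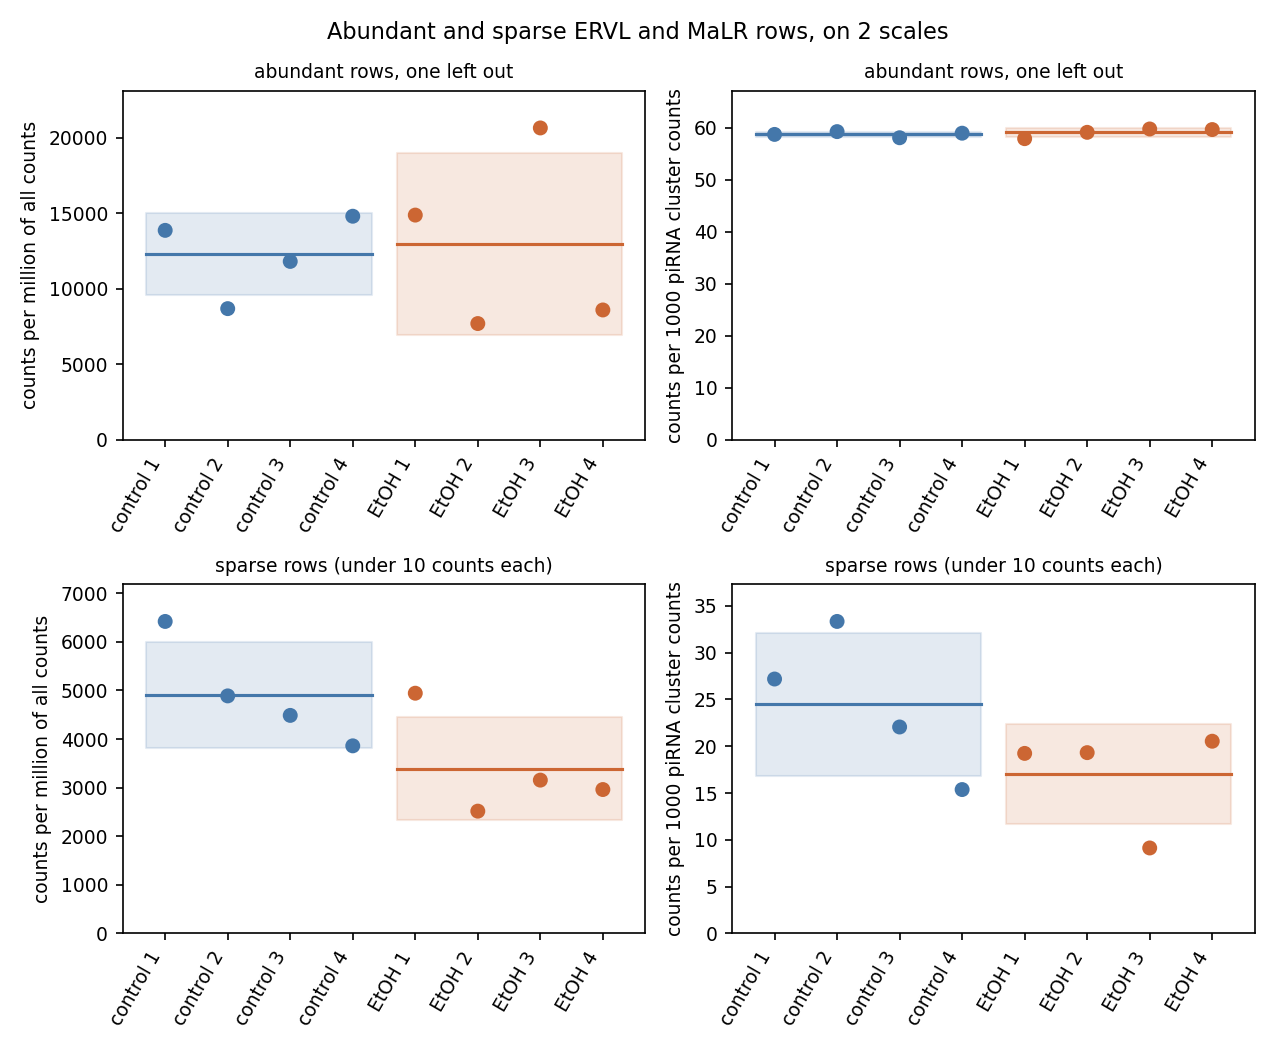
Summed level of 309 abundant rows (top) and of the sparse rows (bottom) in each library (points), as CPM of all counts (left) and per 1000 piRNA cluster counts (right), with group means (lines) and 1 SD on either side (bands). The abundant rows lie between 57.9 and 59.8 on the piRNA scale, while the sparse rows spread from 9.14 to 33.3 on it.

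Among MaLR members the ORR1 group held the most counts. Counts are not divided by length or by number of copies, so that they order the features only by their share of the libraries. ORR1F antisense had 1518, 1040.4, 1409 and 1689 scaled CPM in controls 1 to 4 and 1427, 695, 2098 and 897 in EtOH libraries 1 to 4. EtOH library 3 was the highest of all 8 and EtOH libraries 2 and 4 the lowest, and the log2 fold change, EtOH over control, was -0.14 with a standard error (SE) of 0.40. Of its 55535 counts in 2281 rows, 41.5% lay in ORR1F_copy8196. ORR1F-int antisense had 1411, 928, 1190.4 and 1529 in controls 1 to 4 and 1402, 635, 2061 and 811 in EtOH libraries 1 to 4, the same order of libraries within the EtOH group. It rested on 1 row, since ORR1F-int_copy91 held 99.8% of its 51893 counts. ORR1F sense had 469 ± 94.4 CPM in the controls and 417 ± 203 CPM in the EtOH libraries, and 53.1% of it lay in ORR1F_copy9421.

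ORR1A2-int sense, the inner part of another ORR1 subfamily, had a different order of libraries, with 418, 896, 565 and 875 scaled CPM in controls 1 to 4 and 525, 954, 733 and 913 in EtOH libraries 1 to 4, so that EtOH library 2, lowest in the other members of that rank, was here the highest. Its log2 fold change was 0.18 with an SE of 0.37, and the groups overlapped. The row ORR1A2-int_copy1007 held 94.6% of the feature. Its deposited counts were 1637, 3398, 2114 and 3614 in controls 1 to 4 and 3411, 3471, 4500 and 5114 in EtOH libraries 1 to 4. Per piRNA cluster count it had a CV of 65.4% over the 8 libraries, the highest among the rows with at least 1000 counts. The groups overlapped for this row too, with a log2 fold change of 0.14 and an adjusted p of 0.879 by the quasi-likelihood test of edgeR over single rows.

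**Figure D3:**
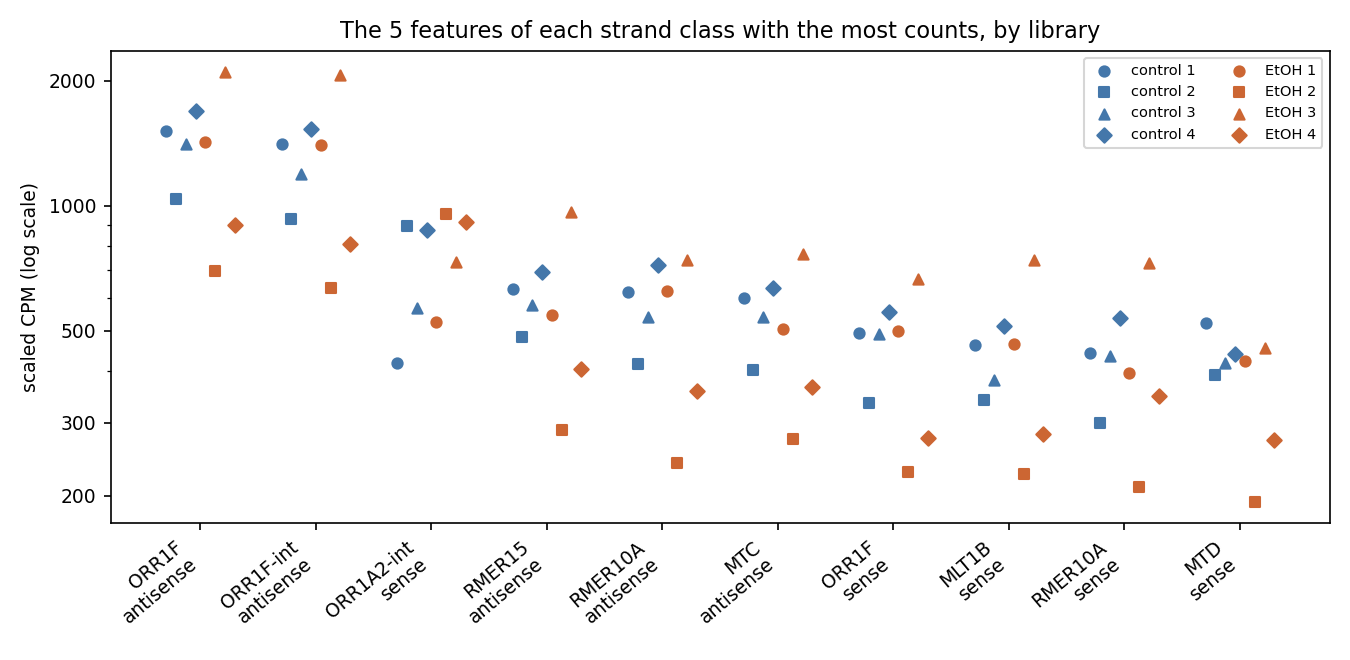
Scaled CPM (log axis) of the 5 features of each strand class with the most counts, with a point for each library, controls in blue and EtOH in orange. EtOH library 2 (orange square) is the lowest point of every feature except ORR1A2-int sense, where it is the highest at 954.

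The MT group, to which the LTR that drives an oocyte form of Dicer belongs (MTC), came next in number of counts. MTC antisense had 601, 402, 540.1 and 632 scaled CPM in controls 1 to 4 and 506, 274, 765 and 366 in EtOH libraries 1 to 4, with 62.3% of its counts in MTC_copy19993. MTD sense had 521, 391, 418 and 439 in controls 1 to 4 and 421, 194, 454.5 and 272.5 in EtOH libraries 1 to 4, and it was spread over more copies, its leading row holding 21.2%. In both features the groups overlapped and EtOH library 2 was the lowest. MLT1, an older MaLR group, was led by MLT1B sense with 423 ± 77.8 CPM in the controls and 428 ± 232 CPM in the EtOH libraries, and by MLT1A0 antisense with 278 ± 47.4 and 257 ± 119 CPM.

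Within ORR1 and MT the counts were unevenly spread over the lettered subgroups of the annotation. The 2 ORR1F subfamilies held 107428 antisense counts, 96.4% of them in 12 abundant rows. The 10 ORR1A subfamilies held 17035 antisense and 42951 sense counts. ORR1G held 708 antisense counts and no abundant antisense row. In the MT group, MTE held 46135 antisense counts in 6866 rows and MTC 22234 in 3977 rows, whereas MTA held 1666 in 1858 rows, of which 7.32% lay in its only abundant row. On the sense strand MTA held 1777 counts and no abundant row. No member of the table carried an MST or THE1 name, the other MaLR groups for which a list was made.

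**Figure D4:**
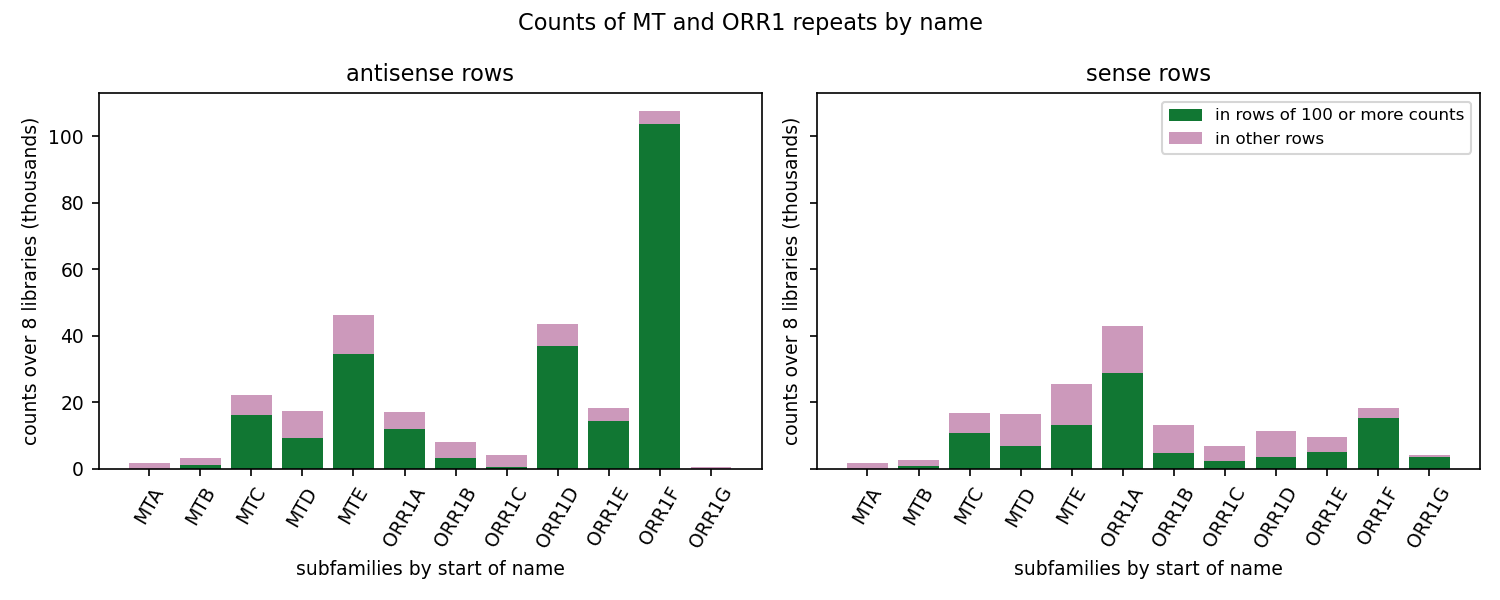
Counts summed over the 8 libraries (y axis, in units of 1000) for MT and ORR1 repeats grouped by the start of the name, antisense rows on the left and sense rows on the right, with counts in rows of at least 100 in green and in all other rows in pink. ORR1F antisense stands highest with 107428 counts, nearly all in abundant rows, and MTA is low on both strands.

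Among ERVL members the RMER group held the most counts. RMER15 antisense had 631, 484, 578 and 692 scaled CPM in controls 1 to 4 and 547, 289, 967 and 404 in EtOH libraries 1 to 4, and 52.7% of it lay in RMER15_copy12154. RMER10A antisense had 618, 417, 539.6 and 722 in controls 1 to 4 and 624, 239.9, 742 and 358 in EtOH libraries 1 to 4, with 86.6% in RMER10A_copy4109. Both overlapped between groups, with EtOH library 3 the highest and EtOH library 2 the lowest. RMER10A sense had 427 ± 97.1 CPM in the controls and 421 ± 220 CPM in the EtOH libraries. Of the older ERVL elements, MLT2B3 sense had 332 ± 68.6 and 344 ± 199 CPM, and MLT2F antisense 242 ± 61.4 and 244 ± 123 CPM, with 95.1% of the latter in MLT2F_copy425.

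MERVL and its MT2 LTRs took 0.0464 ± 0.00764% of all counts on the sense strand in the controls and 0.0401 ± 0.0149% in the EtOH libraries, and 0.0425 ± 0.00613% and 0.0380 ± 0.0152% on the antisense strand. MT2B1 sense led them with 200.1 ± 35.1 CPM in the controls and 186 ± 88.4 CPM in the EtOH libraries, 59.1% of it in MT2B1_copy5859. MERVL-int sense, the strand of the MERVL coding transcript, had 44.0, 39.9, 53.3 and 50.8 CPM in controls 1 to 4 and 26.7, 14.6, 36.9 and 22.3 CPM in EtOH libraries 1 to 4. Every EtOH library was below every control, yet the log2 fold change of -0.90 (SE 0.37) did not pass the adjusted threshold (edgeR, adjusted p = 0.125). The antisense strand of MERVL-int had 94.8 ± 21.3 and 72.7 ± 38.9 CPM, overlapping between groups, and 37.9% of its counts lay in MERVL-int_copy278. MT2_Mm, the LTR of the youngest MERVL copies, was low, with 10.2 ± 1.50 and 7.02 ± 2.11 CPM sense and 4.39 ± 1.11 and 2.99 ± 1.05 CPM antisense. All 16 MERVL and MT2 features were tested with edgeR and none passed the threshold in either direction. MERVL-int sense passed it with DESeq2 (adjusted p = 0.0357), where 4.56% of all features were lower. It also passed with edgeR without EtOH library 3 (adjusted p = 0.0415), where 3.78% were lower. In the other settings it did not pass. The edgeR adjusted p was 0.122 with median-of-ratios size factors, 0.143 with library size alone and 0.590 among repeat rows only. It was 0.273 scaled to piRNA cluster counts and 0.162 to 0.265 without any other single library. With limma voom it was 0.0591.

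The comparison of EtOH with control libraries asks whether sperm small RNA differs after cessation of ethanol. Of the 431 features, 229 passed the filter on low counts and held 99.3% of the ERVL and MaLR counts; the other 202 had a median of 18 counts in all and at most 95. No member was higher in the EtOH libraries at an adjusted p under 0.05 (edgeR quasi-likelihood test), while 8.08% of all 9822 features tested were. At an unadjusted p under 0.05 the count of higher members was also 0, and 20.7% of all features reached that. DESeq2 likewise gave 0 higher members, against 15% of all features, and limma voom 0, against 6.1%. The share of all features higher depended on the fit. It was 0.0102% with median-of-ratios size factors, 0.0951% among repeat rows only and 0% scaled to piRNA cluster counts. Leaving out 1 control library gave 0.00811% to 0.0178%, and leaving out EtOH library 4 gave 0.00967%. Leaving out EtOH library 1, 2 or 3 gave 6.2% to 18.5%. A single member was lower, against 1.83% of all features. The count was also 1 with limma voom, against 2.54%. At an unadjusted p under 0.05, 23 members were lower, against 8.46% of all features.

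The member called lower was ERVL-E-int sense, the inner part of an old ERVL element. It held 45, 20, 23 and 31 counts in controls 1 to 4 and 29, 9, 11 and 8 in EtOH libraries 1 to 4, or 7.02 ± 2.29 and 2.39 ± 1.20 scaled CPM (SD, n = 4 per group). Every EtOH library was below every control on the scaled level. The log2 fold change was -1.54 (SE 0.43, edgeR adjusted p = 0.0431). Its 176 counts were spread over 98 rows, the largest holding 6.25%. At EtOH counts this low, the filter can admit such a member through the controls, where it was higher. The call was lost without any of 5 single libraries, where the edgeR adjusted p was 0.124, 0.0725, 0.0897 and 0.0814 without control libraries 1 to 4 and 0.109 without EtOH library 4. In those 5 fits 0.029 to 0.0978% of all features were lower. The adjusted p was 0.392 among repeat rows only, where the log2 fold change was -1.13, 0.214 with no filter and 0.273 scaled to piRNA cluster counts. It was 0.0564 with median-of-ratios size factors and 0.0657 with library size alone, under which 0 members were lower and 0 higher, against 1.21% and 8.48% of all features. Against all controls, EtOH libraries 3 and 4, whose titles carry an identifier of the EM form, gave an edgeR adjusted p of 0.0410. EtOH libraries 1 and 2, of the M form, gave 0.126. Each of these fits has only 2 EtOH libraries, and 1.07% and 2.94% of all features were lower in them.

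The next members by p did not pass the threshold. ERVL-int sense had 3.65 ± 1.09 CPM in the controls and 1.54 ± 0.539 CPM in the EtOH libraries, without overlap (log2 fold change -1.18, edgeR adjusted p = 0.0636). It held 3 to 15 counts in each EtOH library, so the filter can have admitted it through the controls as well. MLT1H antisense had 13.4 ± 4.87 and 6.47 ± 2.63 CPM, MLT1F-int sense 2.88 ± 0.496 and 1.36 ± 0.802 CPM, and MTA_Mm-int antisense 25.0 ± 9.65 and 13.0 ± 4.18 CPM, and in these the groups overlapped. ORR1B2-int antisense had 9.17 ± 2.83 and 4.71 ± 1.78 CPM and MLT1E3 antisense 6.39 ± 1.21 and 3.37 ± 1.17 CPM, without overlap. These 5 had log2 fold changes between -1.03 and -0.91. The groups of ORR1B2-int antisense were barely apart, with 7.318 CPM in the lowest control and 7.308 CPM in the highest EtOH library. Its highest control had 13.4 CPM. With DESeq2, 4 members were lower, namely ERVL-E-int, ERVL-int and MERVL-int sense and MLT1H antisense, against 4.56% of all features.

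On the higher side the lowest p belonged to MTB_Mm-int sense, with 4.59 ± 0.691 CPM in the controls and 5.60 ± 2.31 CPM in the EtOH libraries, a log2 fold change of 0.28. MLT1J-int sense had 4.80 ± 1.09 and 5.52 ± 2.05 CPM, MER68 sense 12.5 ± 0.967 and 14.1 ± 7.14 CPM, and MLT1E2 antisense 36.0 ± 3.89 and 38.9 ± 19.6 CPM. The groups overlapped in all of them, and each difference was smaller than the SD of the EtOH libraries.

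Small fitted values below 0 were common. Of the 229 tested members 214 had a log2 fold change below 0, against 52.6% of all features, and their median was -0.44 (quartiles -0.64 and -0.17) against -0.04 over all features. The median was -0.45 in ERVK, -0.32 in ERV1, -0.37 in other repeats and -0.32 in introns, so that the members lay within the range of these classes. Exon features had a median of 0.77. The count depended on the scale: with library size alone, which moved the median of all features to 0.10, 183 members were below 0 and 46 above, and scaled to piRNA cluster counts 199 were below and 30 above. Fitted among repeat rows only, 119 members were below 0 and 111 above. The filter lets a low member in through the group where it is high, so that these counts cover tested members only.

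Every EtOH library was below every control in 23 of the 229 tested members, or 10%, near the 7.57% of all features. Every EtOH library was above every control in 0 members, against 10.8% of all features. All 23 belonged to the 154 tested members with less than 50% of their counts in abundant rows, whose median log2 fold change was -0.56. The 75 members with 50% or more of their counts in abundant rows held 82.4% of the counts, had a median of -0.13, and none of them was separated between groups or reached an unadjusted p of 0.05. This split was made after the values were seen and carries no test. Abundant rows followed the piRNA cluster level, which overlapped between groups, so these 75 members are not separate observations. Low members among the 154 can pass the filter through the controls, which can lower their median. The largest of the separated members by counts were ORR1A2 sense, with 194 and 100.3 CPM, ORR1B2 sense, with 141 and 80.9 CPM, and MTE2b sense, with 94.2 and 55.8 CPM as control and EtOH means. The lowest adjusted p among these 3 was the 0.145 of ORR1A2 sense.

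**Figure D5:**
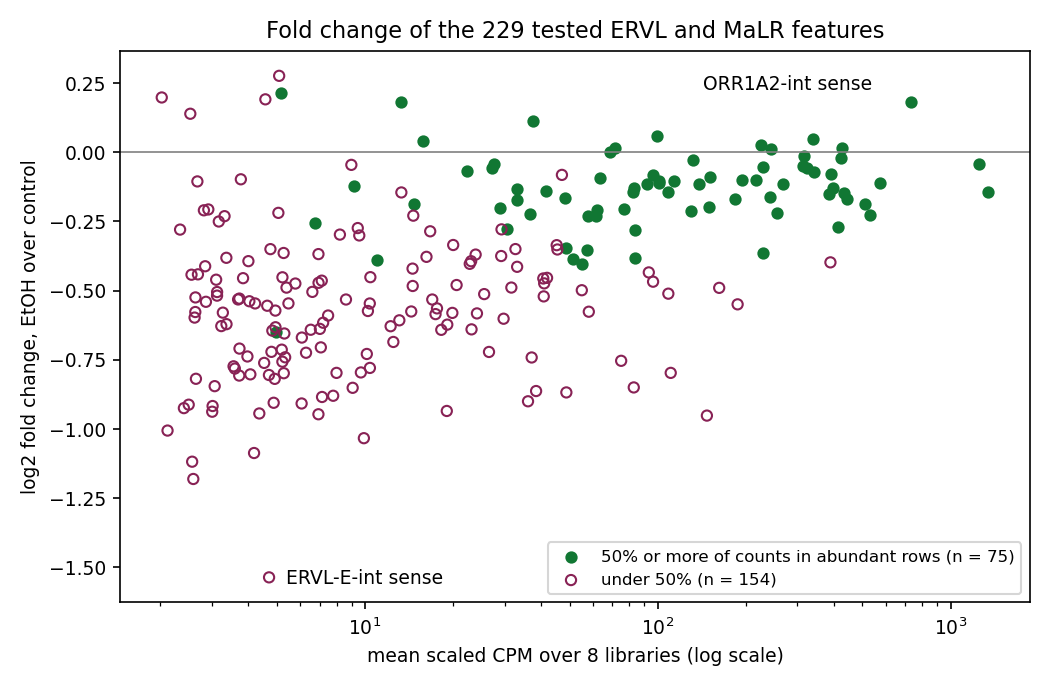
Log2 fold change, EtOH over control (y axis), against the mean scaled CPM over the 8 libraries (x axis, log scale) of the 229 tested ERVL and MaLR features, with filled points for the 75 features with 50% or more of their counts in abundant rows and open points for the other 154. Filled points lie around a median of -0.13 and open points around -0.56, and ERVL-E-int sense at -1.54 is the only feature past the threshold.

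The sparse rows were also summed without any fit, and came to 6418, 4887, 4486 and 3859.5 CPM of all counts in controls 1 to 4 and 4942, 2516, 3155 and 2961 CPM in EtOH libraries 1 to 4. EtOH libraries 2 to 4 were below every control, and EtOH library 1 was above 3 of the 4 controls, so that the groups overlapped. The means were 4913 ± 1089 and 3393 ± 1066 CPM (SD, n = 4 per group), a ratio of 0.691, and without EtOH library 2 the EtOH mean was 3686 ± 1092 CPM (n = 3). Sparse rows of ERVK, ERV1 and the other repeats had ratios of 0.704, 0.732 and 0.716. The abundant ERVL and MaLR rows had a ratio of 1.07 on the same scale. Per 1000 piRNA cluster counts the sparse rows came to 24.5 ± 7.63 and 17.1 ± 5.32, overlapping between groups.

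Single rows were tested as deposited to see whether copies differed where sums did not. Of the 326 ERVL and MaLR rows tested, none was higher or lower at an adjusted p under 0.05 (edgeR), against 0.0489% higher and 0.137% lower among all 10234 rows. At an unadjusted p under 0.05, 1 was higher and 4 were lower, against 17.9% and 9.15% of all rows. DESeq2 gave 0 higher and 3 lower members, against 13.1% and 3.95% of all rows. With limma voom there were 0 higher and 2 lower, against 4.06% and 2.34%. The fitted value was below 0 in 250 of the 326 rows, against 55.2% of all rows. MLT1K_copy2441 antisense came closest, with 9.75, 28.0, 14.4 and 8.27 CPM in controls 1 to 4 and 5.06, 2.43, 6.69 and 2.61 CPM in EtOH libraries 1 to 4. All 4 EtOH values were below the lowest control (log2 fold change -1.95, SE 0.51, edgeR adjusted p = 0.0525). MTC_copy2797 sense had 5.74 ± 3.36 CPM in the controls and 1.89 ± 0.977 CPM in the EtOH libraries, and RMER15_copy10441 antisense 14.2 ± 4.65 and 5.13 ± 3.61 CPM, and both overlapped between groups. MTC_copy2796 antisense, with 5.62 ± 2.34 and 2.10 ± 2.31 CPM, and ORR1D2_copy10444 antisense, with 10.1 ± 3.38 and 5.67 ± 0.635 CPM, overlapped as well. The row with the lowest p on the higher side was ORR1A3-int_copy1888 sense, with 1.65 ± 0.665 and 3.33 ± 1.47 CPM (log2 fold change 0.95, edgeR adjusted p = 0.177), which overlapped. RMER10A_copy4110 sense had 2.95, 1.01, 2.23 and 2.30 CPM in controls 1 to 4 and 3.51, 3.24, 5.17 and 3.13 CPM in EtOH libraries 1 to 4. All 4 EtOH values were above the highest control (log2 fold change 0.74, SE 0.38, edgeR adjusted p = 0.234). ORR1A4_copy1000 sense had 2.41 ± 1.60 and 3.69 ± 2.33 CPM, MLT1C_copy6355 sense 6.43 ± 1.45 and 8.87 ± 5.37 CPM, and MTEa_copy18347 antisense 3.61 ± 1.26 and 4.85 ± 1.99 CPM, overlapping in each. Reads of near-identical copies may be split or shared between rows, so the value of any single copy is uncertain.

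Genes that act in the silencing of such repeats were read in the same libraries as fragments of their transcripts. All 31 listed genes had exon counts, 7 had an exon feature that could be tested, and 0 of the 7 passed the threshold in either direction (edgeR). Summed over the exons of all 31 genes, the level was 80.3, 81.2, 98.8 and 86.8 CPM of all counts in controls 1 to 4 and 109, 255, 118 and 112 CPM in EtOH libraries 1 to 4. Every EtOH library was above every control, as it was for the exon share of all genes, and the sum carries no test. The largest of these was an exon of Piwil2, a Piwi protein that binds piRNAs, with 15.4 ± 4.36 CPM in the controls and 12.4 ± 5.22 CPM in the EtOH libraries. An exon of Piwil1, the Piwi protein of later germ cells, had 2.55 ± 0.534 and 3.37 ± 1.98 CPM, and one of Trim28, a co-repressor of retroviruses, 3.54 ± 1.09 and 5.49 ± 2.85 CPM. The groups overlapped in all 7 tested exon features.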

How the data were processed

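Small RNA of mature sperm was read in 8 libraries. Per the labels, only read 1 of the paired reads was taken, and the submitters' processing notes name cutadapt, an adapter trimmer, with no version. The deposited values are whole-number counts per annotated feature, with no normalization; the aligner, the build, the repeat annotation and the treatment of multiply matching reads are not given in the sources used. Columns were assigned to samples through their titles, and groups follow the treatment label. No sequence of a repeat is printed.

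All repeat rows were summed by subfamily and strand class, other rows were kept as deposited, and low features were removed with filterByExpr. A feature was kept with a total of at least 15 counts and a minimum CPM in at least 4 libraries. That minimum equals 10 counts in a library of median size. With 4 libraries per group, 1 group can suffice. The scaling was TMM, the test the quasi-likelihood F test of edgeR 4.0.16 (R 4.3.3). P-values were adjusted by Benjamini-Hochberg over all 9822 tested features, at a threshold of 0.05. A second fit took single rows as deposited (10234 tested). Scaled CPM rest on TMM library sizes, whereas summed rows are set against library totals. Sums over members were not tested. DESeq2 1.42.0, voom in limma 3.58.1, other scalings, filters and left-out libraries were alternatives.

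The members, lists and tests were chosen with earlier results of these data known. Named features are the 5 with the highest mean CPM of each strand class, the 8 with the lowest p in each direction, those past the threshold and the leading member of each list and strand class; named rows are the 5 with the lowest p in each direction and those that lead a named feature. Other MERVL features, the separated members, the rows ORR1A2-int_copy1007 and ORR1B2_copy1772, the silencing genes named and the abundant and sparse classes were chosen after their values were seen. With no molecular tags named in the labels, duplicate reads from amplification cannot be removed.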

Additional observations from a re-analysis of the deposited data

Results flagged for a closer look

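In 3 results, 1 library of a group of 4 stood apart from the other libraries of its group, with a gap to its nearest neighbour above the 95% critical value of Dixon's test. By chance such a gap arises in about 1 in 20 groups of 4, or about 12 of the 244 groups looked at. ORR1B2-int antisense was high in control library 1, at 13.4 CPM. The sparse rows were low in EtOH library 3, at 9.14 per 1000 piRNA cluster counts. The antisense counts of MERVL and its LTRs were low in control library 2, at 0.0334% of all counts.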

How the results depend on the processing

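No paired analysis was possible because the labels give no replicate numbers, and numbers in accession order pair nothing. The count of 0 higher subfamily features stayed 0 in every alternative run. The share of all features higher was 0% to 18.5% over these runs. It was 0.0102% with median-of-ratios size factors, 0.0951% among repeat rows only and 0% scaled to piRNA cluster counts. Without 1 control library it was 0.00811% to 0.0178%, and without EtOH library 4 it was 0.00967%. In those runs a count of 0 does not set the members apart from all features. The count of lower features, 1, became 0 with median-of-ratios size factors, library size alone, no filter, repeat rows only, the EtOH libraries of the M form, scaling to piRNA cluster counts (added after seeing the data) and rows not summed, and 4 with DESeq2. The share of all features lower was 0.0509%, 1.21%, 0.0331%, 0.0951%, 2.94%, 0%, 0.137% and 4.56% in that order; leaving out each library gave 0 to 2, with 2 without EtOH library 3, against 0.029% to 3.78% of all features. For single rows, the count of lower members, 0, became 3 with DESeq2 and 2 with limma voom, and leaving out each library gave 0 to 3 lower (3 without EtOH library 3, 1 without EtOH library 2) and 0 to 1 higher (1 without EtOH library 1). The share of all rows lower was 3.95%, 2.34% and, over left-out libraries, 0.0185% to 3.63%, and 2.84% were higher without EtOH library 1. The cause was not tested. ERVL-E-int sense kept its direction in each of the fits of summed features. The abundant rows had a CV of 1.24% and 1.19% per piRNA cluster count with 50 and 200 counts as the limit, and the sparse rows a difference of mean log2 levels, EtOH minus control, of -0.57 and -0.54 with 5 and 20, against -0.56 with 10, both added after seeing the data. Low counts limit what can be seen in members such as ERVL-E-int. The following log2 fold changes, none past the threshold, lay on the other side of 0 from the reported value. Without a filter on low counts, the sign turned to 0.047 for ORR1F antisense, 0.15 for ORR1F-int antisense, 0.094 for RMER15 antisense, 0.020 for ORR1F sense, 0.18 for RMER10A sense, 0.072 for MLT1A0 antisense, 0.081 for MT2B1 sense and 0.13 for MT2B antisense. Among repeat rows only, the sign turned to 0.25 for ORR1F antisense, 0.34 for ORR1F-int antisense, 0.29 for RMER15 antisense, 0.16 for RMER10A antisense, 0.23 for MTC antisense, 0.22 for ORR1F sense, 0.38 for RMER10A sense, 0.021 for MTD sense, 0.29 for MLT1A0 antisense, 0.30 for MT2B1 sense, 0.22 for MT2B antisense and 0.039 for RLTR28 antisense. With the EtOH libraries of the EM form, the sign turned to 0.10 for ORR1F antisense, 0.20 for ORR1F-int antisense, 0.22 for RMER15 antisense, 0.085 for MTC antisense, 0.025 for ORR1F sense, 0.36 for RMER10A sense, 0.11 for MLT1A0 antisense, 0.055 for MT2B1 sense, 0.13 for MT2B antisense and -0.26 for MTB_Mm-int sense. With library size alone, the sign turned to 0.076 for ORR1F-int antisense, 0.0054 for RMER15 antisense, 0.095 for RMER10A sense, 0.010 for MLT1A0 antisense, 0.026 for MT2B1 sense and 0.014 for MT2B antisense. Scaled to piRNA cluster counts, the sign turned to 0.0041 for ORR1F-int antisense and 0.056 for RMER10A sense. With the EtOH libraries of the M form, the sign turned to -0.11 for ORR1A2-int sense, -0.44 for MLT1B sense, -0.40 for MLT2B3 sense, -0.40 for MLT2F antisense, -0.39 for MLT-int sense, -0.20 for MLT1E2 antisense, -0.27 for MER68 sense, -0.24 for MLT1J-int sense, -0.19 for ORR1D-int sense and -0.16 for LTR41 antisense. With a mean count of at least 10, the sign turned to -0.086 for MLT1B sense, -0.044 for MLT2B3 sense, -0.092 for MLT2F antisense, -0.039 for MLT-int sense and -0.0096 for ORR1D-int sense. With limma voom, the sign turned to -0.0023 for ORR1D-int sense. Leaving out each library in turn gave a log2 fold change of -0.30 to 0.57 for LTR41 antisense, -0.25 to 0.45 for MER68 sense, -0.20 to 0.48 for MER70A antisense, -0.44 to 0.29 for MLT-int sense, -0.50 to 0.12 for MLT1A0 antisense and -0.47 to 0.25 for MLT1B sense. It was -0.10 to 0.70 for MLT1C_copy6355 sense, -0.27 to 0.37 for MLT1E2 antisense, -0.051 to 0.48 for MLT1J-int sense, -0.44 to 0.31 for MLT2B3 sense, -0.43 to 0.24 for MLT2F antisense and -0.69 to 0.17 for MT2B antisense. It was -0.48 to 0.12 for MT2B1 sense, -0.59 to 0.038 for MTC antisense, -0.022 to 0.46 for ORR1A2-int sense, -0.063 to 0.39 for ORR1D-int sense, -0.57 to 0.089 for ORR1F antisense and -0.57 to 0.064 for ORR1F sense. It was -0.50 to 0.20 for ORR1F-int antisense, -0.57 to 0.038 for RMER10A antisense, -0.51 to 0.23 for RMER10A sense and -0.61 to 0.13 for RMER15 antisense.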
